A study of Mus musculus with 16 samples.

Results

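The expression of 10 endothelial cell genes was followed in dorsal mouse skin: Pecam1, Cdh5, Kdr, Tek, Vwf, Sox17, Lyve1, Sele, Selp and Vcam1. They were chosen by symbol from count tables that held 23238 gene symbols, and all 10 were among the 14854 rows with enough counts to be tested. Total RNA from the skin of 4 mice in each of 4 groups had been made into 16 libraries with QuantSeq, a protocol that reads 1 short stretch at the 3′ end of each messenger RNA. All animals were male wild-type C57BL/6N mice (C57BL/6 in the series text), 3 weeks old on arrival and given 1 week to adapt. The Cont group ate a normal chow diet. Whether the skin of Cont and LowAhR mice was treated with the acetone and olive oil vehicle is not given in the sources used here. The LowAhR group was kept for 12 weeks on a diet low in ligands of the aryl hydrocarbon receptor (AhR), with ligand-free paper bedding. The LowAhR+AD group had the same diet and, after its first 2 weeks, 1% 2,4-dinitrochlorobenzene (DNCB), a hapten that causes contact dermatitis, on the skin 2 times a week for 10 weeks. The LowAhR+AD+BJ group had diet and DNCB and was also given Bojungikgi-tang (BJIKT), a water extract of 8 herbs, by mouth at 1 g/kg per day. Every group treated with DNCB was therefore on the low-ligand diet, and no group had DNCB or BJIKT on a normal diet.

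Endothelial cells line blood and lymph vessels. Their junctions hold the adhesion proteins PECAM-1 and VE-cadherin, their growth is steered through receptors for vascular endothelial growth factors and angiopoietins, and in inflamed skin they display selectins and VCAM-1, which slow and hold passing leukocytes. The genes encode junction proteins (Pecam1, Cdh5), receptor tyrosine kinases (Kdr, the main receptor for VEGF-A, and Tek, the angiopoietin receptor Tie2), a secreted clotting protein (Vwf), a transcription factor of arterial endothelium (Sox17), a hyaluronan receptor of lymphatic vessels (Lyve1) and leukocyte adhesion molecules (Sele, Selp, Vcam1). Several are made by other cells as well: Pecam1 by platelets and leukocytes, Vwf and Selp by megakaryocytes and platelets, and Lyve1 and Vcam1 by some macrophages.

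In GENCODE M21 on GRCm38 the genes lie on 8 chromosomes. Pecam1 is at chr11:106654217-106750628, Cdh5 at chr8:104101625-104144511, Kdr at chr5:75932827-75978458 and Tek at chr4:94739289-94874976. Vwf is at chr6:125546774-125686679, Sox17 at chr1:4490931-4497354, Lyve1 at chr7:110850607-110863239 and Vcam1 at chr3:116109949-116129688. Both selectin genes lie on chromosome 1, Sele at chr1:164048234-164057677 and Selp at chr1:164115264-164150026. Sox17, Selp and Vcam1 share exon bases with genes of the other strand (Gm37587 with Sox17, Gm16548 and Gm16587 with Selp, Gm43109 with Vcam1). Whether reads were counted by strand is not given in the sources used here, so for these 3 genes reads of the partner cannot be told apart.

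RefSeq promoters on GRCm38.p6, from 250 bases before to 50 bases after the annotated start, were at hand for 4 of the 10 genes (Kdr, Tek, Sele and Selp). The 3 printed here, 5′ to 3′ on the strand of the gene, belong to the receptor genes with their lowest mean levels in LowAhR+AD+BJ and to Sele, the textbook case of an adhesion gene switched on by inflammatory cytokines. Capitals mark matches, on either strand, to the letters GGGNNNNNCC, a loose form of the NF-κB motif, and to CNGGAA, a loose form of the core motif of ETS factors.
Kdr, chr5:75978406-75978705, minus strand: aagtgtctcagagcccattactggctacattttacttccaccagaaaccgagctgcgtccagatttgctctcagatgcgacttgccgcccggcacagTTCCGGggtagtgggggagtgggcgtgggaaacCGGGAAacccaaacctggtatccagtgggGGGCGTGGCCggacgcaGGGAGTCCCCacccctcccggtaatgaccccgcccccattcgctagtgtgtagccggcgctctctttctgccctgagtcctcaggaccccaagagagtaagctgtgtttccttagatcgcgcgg
Tek, chr4:94739039-94739338, plus strand: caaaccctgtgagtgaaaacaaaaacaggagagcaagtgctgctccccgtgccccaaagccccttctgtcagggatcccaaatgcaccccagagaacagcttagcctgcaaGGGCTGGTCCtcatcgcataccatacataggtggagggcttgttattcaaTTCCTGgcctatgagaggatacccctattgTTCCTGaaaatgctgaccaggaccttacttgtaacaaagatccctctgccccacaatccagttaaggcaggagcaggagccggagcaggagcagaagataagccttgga
Sele, chr1:164047984-164048283, plus strand: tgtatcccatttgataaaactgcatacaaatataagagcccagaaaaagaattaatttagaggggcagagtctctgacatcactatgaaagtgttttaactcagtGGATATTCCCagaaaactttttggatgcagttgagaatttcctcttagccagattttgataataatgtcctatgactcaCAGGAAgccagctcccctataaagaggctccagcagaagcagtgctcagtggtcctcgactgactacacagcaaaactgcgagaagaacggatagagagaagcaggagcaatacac
Kdr held 3 matches to the first pattern, 2 of them the same bases GGGAGTCCCC read on both strands, and 2 matches to the second. Tek held 1 and 2, Sele 1 and 1, and the promoter of Selp 1 and 1. Of 32851 promoters of this length, 50.8% held the first pattern and 61.7% the second, so neither sets these genes apart.

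Library totals were 7080508 to 8051425 counts in Cont and 7436315 to 8773876 in LowAhR, against 11336051 to 13467477 in LowAhR+AD and 10614393 to 12999055 in LowAhR+AD+BJ, so that depth and DNCB cannot be told apart. Levels are counts per 1000000 (CPM) of the TMM-scaled library total, and a count of 0 allows up to 3 counts, or 0.229 to 0.406 CPM depending on the library (counting error only). Differences in level are log2 fold changes from edgeR's quasi-likelihood test with all libraries in 1 model, given with a standard error (SE), and a gene counts as called where p, adjusted by Benjamini-Hochberg over the 14854 rows, was under 0.05. Each level was also compared by a two-sided exact permutation test of 4 against 4 libraries, which cannot go below p = 0.0286. One library stood apart: in LowAhR+AD replicate 1, 32.6% of the genes predicted from the other libraries to have 20 to 40 counts had none, against at most 13.8% elsewhere. Keratinocyte genes (6 in the list) summed to between 4795 and 12935 CPM in every library, and the 10 endothelial genes together summed to between 132 and 398 CPM. In whole skin, fewer endothelial cells and less RNA per endothelial cell cannot be told apart.

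Pecam1 was the only one of the 10 genes called in any of the 5 comparisons, which did not include LowAhR+AD+BJ against Cont. It rose in LowAhR+AD relative to Cont, whereas the other 9 genes missed the threshold in all 5. Mean levels of Cdh5, the VE-cadherin gene, took a different course, a contrast between genes that was not tested. They were about as high in LowAhR+AD as in Cont and lower in LowAhR and LowAhR+AD+BJ. Kdr and Tek had their lowest mean levels in LowAhR+AD+BJ. In LowAhR against Cont 0 genes were called, in LowAhR+AD against LowAhR 0, in LowAhR+AD against Cont 1, in LowAhR+AD+BJ against LowAhR+AD 0 and in LowAhR+AD+BJ against LowAhR 0. The same comparisons called 0%, 12.6%, 21.8%, 0% and 6.77% of all tested rows, so the endothelial genes were called no more often than genes in general.

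**Figure D1:**
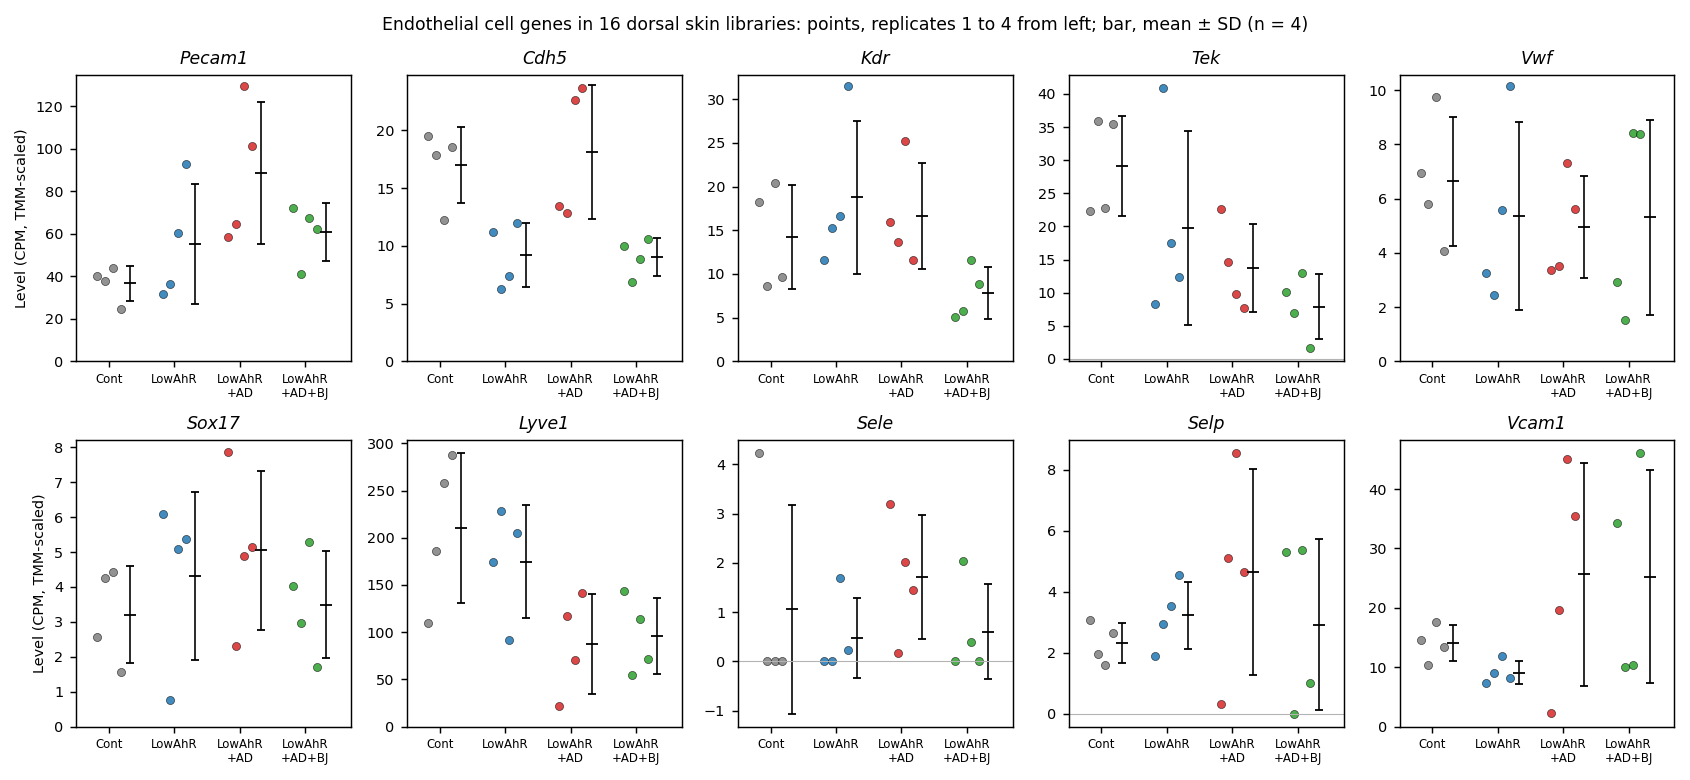
Level of each of the 10 endothelial cell genes in CPM (vertical axis, one scale per gene) in the 16 libraries, grouped by treatment. Points are replicates 1 to 4 from the left and bars are the mean ± SD of 4 libraries. Pecam1 lies higher in all 4 LowAhR+AD libraries than in any Cont library, and Cdh5 lies lower in all LowAhR and LowAhR+AD+BJ libraries than in any LowAhR+AD library.

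Among the junction genes, Pecam1 encodes an adhesion protein of endothelial cell contacts. Its level in replicates 1 to 4 was 40.1, 37.9, 43.9 and 24.8 CPM in Cont, and 31.5, 36.2, 60.1 and 92.8 CPM in LowAhR. It was 58.5, 64.6, 130 and 101 CPM in LowAhR+AD and 72.0, 41.2, 67.5 and 62.2 CPM in LowAhR+AD+BJ. The Cont libraries were close together, the LowAhR libraries ranged 2.95-fold with replicate 4 far above replicate 1, and LowAhR+AD lay wholly above Cont. From a mean of 36.7 ± 8.30 CPM (SD, n = 4) in Cont to 88.5 ± 33.3 CPM (SD, n = 4) in LowAhR+AD the log2 fold change was 1.27 (SE 0.34, edgeR adjusted p = 0.0118), a 2.41-fold difference. The exact permutation test gave p = 0.0286, the smallest it allows, and 24.7% of all rows had no overlap between these groups.

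The rise of Pecam1 kept its call when any 1 library was left out, with log2 fold changes of 1.03 to 1.41 and edgeR adjusted p of 0.00517 to 0.0423. Against LowAhR, the diet control of LowAhR+AD, the log2 fold change was 0.68 (SE 0.33, edgeR adjusted p = 0.189). This value moved with single libraries. It was 1.06 without LowAhR replicate 4, the highest of its group (edgeR adjusted p = 0.0399), but 0.44 without LowAhR+AD replicate 3 (edgeR adjusted p = 0.425). LowAhR, with a mean of 55.2 ± 28.1 CPM (SD, n = 4), and LowAhR+AD+BJ, with 60.7 ± 13.6 CPM (SD, n = 4), lay between the other groups, and neither differed from its neighbours beyond the spread between libraries.

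Platelet genes also differed between Cont and LowAhR+AD. The 6 platelet genes summed to 94.0 to 143 CPM in Cont, 190 to 335 in LowAhR, 229 to 619 in LowAhR+AD and 293 to 781 in LowAhR+AD+BJ. Of the 4 tested, 2 rose in LowAhR+AD against Cont, Gp1bb and Pf4, and Gp1bb, a subunit of the platelet receptor for von Willebrand factor, also rose against LowAhR (log2 fold change 1.25, SE 0.32, edgeR adjusted p = 0.0160), a call lost without LowAhR replicate 1 or 2 (edgeR adjusted p up to 0.0569). Gp6, a collagen receptor that defines platelets, was at 0 in every group and Gp9 in LowAhR+AD+BJ. The 9 macrophage genes summed to 550 to 1274 CPM in Cont and 242 to 1643 CPM in LowAhR+AD, and 0 of 9 were called. The part of platelets or leukocytes in the level of Pecam1 was not tested.

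Markers of other cells differed in the same comparison. In LowAhR+AD against Cont, 7 of 7 hair follicle genes rose, from a sum of 7.70 to 897 CPM to one of 6159 to 21047 CPM. The keratinocyte genes Krt14 and Krt5 rose (2 of 6), and so did 2 of 5 red blood cell genes, Hba-a1 and Hbb-bs, from a sum of 1024 to 1411 CPM to one of 2501 to 4510 CPM. Their part in the rise of Pecam1 was not tested.

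Cdh5 encodes VE-cadherin, the adhesion protein of endothelial junctions that few other cells make. Its level in replicates 1 to 4 was 19.5, 17.8, 12.2 and 18.6 CPM in Cont and 11.2, 6.27, 7.42 and 11.9 CPM in LowAhR. In LowAhR+AD it was 13.4, 12.8, 22.6 and 23.7 CPM, and in LowAhR+AD+BJ 9.95, 6.82, 8.87 and 10.6 CPM. All LowAhR libraries lay below all Cont and all LowAhR+AD libraries, and all LowAhR+AD+BJ libraries lay below all LowAhR+AD libraries. LowAhR+AD+BJ also lay wholly below Cont, a comparison that was not tested. The narrowest gap, between LowAhR replicate 4 and Cont replicate 3, was small.

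For Cdh5 the log2 fold change was -0.89 (SE 0.33) in LowAhR against Cont, 0.98 (SE 0.33) in LowAhR+AD against LowAhR and -1.001 (SE 0.33) in LowAhR+AD+BJ against LowAhR+AD. Each of the 3 reached the smallest permutation p, 0.0286 (exact), and none was called over all genes, with edgeR adjusted p of 0.222, 0.0601 and 0.498. No overlap between the groups was seen for 11.3%, 18.8% and 5.08% of all rows in these comparisons. The middle value lay close to the threshold: without LowAhR+AD replicate 1, the library with many missing genes, the edgeR adjusted p was 0.0415, and over all libraries left out in turn it ran from 0.0415 to 0.160. The pairs of groups at like levels, Cont at 17.0 ± 3.28 and LowAhR+AD at 18.1 ± 5.82 CPM, and LowAhR at 9.21 ± 2.79 and LowAhR+AD+BJ at 9.06 ± 1.65 CPM (SD, n = 4 each), did not differ beyond their spread (exact permutation p = 0.914 and 1).

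Because both genes were counted in the same library, the ratio of their counts does not depend on scaling. Pecam1 counts per Cdh5 count were 1.34 to 3.60 in Cont (median 2.09), 2.81 to 8.11 in LowAhR (median 6.78), 4.27 to 5.73 in LowAhR+AD (median 4.70) and 5.88 to 7.61 in LowAhR+AD+BJ (median 6.64). Every LowAhR+AD library was above every Cont library and below every LowAhR+AD+BJ library. Pecam1 counts per Kdr count had medians of 2.38, 2.83, 4.92 and 7.06 in the same order of groups, and every library with DNCB (3.67 to 14.1) lay above every LowAhR library (2.38 to 3.61), but Cont replicate 2, at 4.37, was within their range. Pecam1 counts per Tek count had medians of 1.42, 3.63, 8.78 and 6.53, with the highest median in LowAhR+AD. The ranges of LowAhR (0.884 to 7.48), LowAhR+AD (2.59 to 13.3) and LowAhR+AD+BJ (5.23 to 38.6) overlapped. The highest library was LowAhR+AD+BJ replicate 4, which had 16 Tek counts. These ratios were formed after the levels had been seen and are given as a description.

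**Figure D2:**
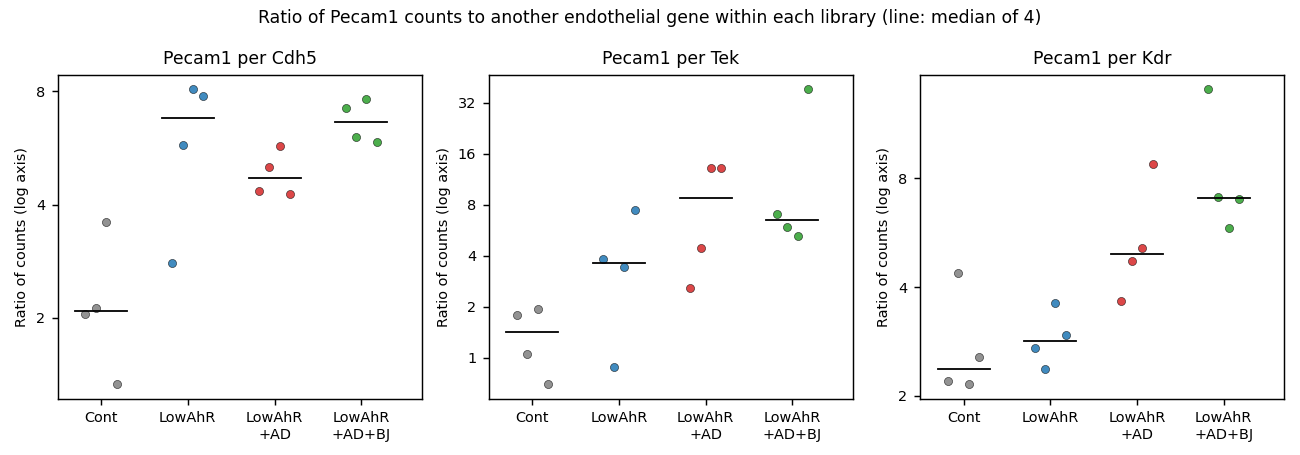
Ratio of Pecam1 counts to Cdh5, Tek and Kdr counts in each library (logarithmic vertical axis), by group, with replicates 1 to 4 from the left and the median of 4 as a line. The Pecam1 to Cdh5 ratio of the LowAhR+AD libraries, 4.27 to 5.73, sits between Cont and LowAhR+AD+BJ.

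Kdr encodes VEGF receptor 2, which carries most of the growth signal of VEGF-A into blood vessel endothelium. Its level in replicates 1 to 4 was 18.2, 8.66, 20.4 and 9.70 CPM in Cont and 11.6, 15.2, 16.7 and 31.5 CPM in LowAhR. LowAhR+AD gave 15.95, 13.7, 25.3 and 11.6 CPM and LowAhR+AD+BJ 5.11, 5.80, 11.6 and 8.88 CPM. The LowAhR+AD+BJ libraries lay below all LowAhR libraries, although replicate 3, at 11.59 CPM, all but met LowAhR replicate 1 at 11.63 CPM. The same replicate was the single one to reach into the range of LowAhR+AD. The log2 fold change was -1.26 against LowAhR (SE 0.41, edgeR adjusted p = 0.0755, exact permutation p = 0.0286) and -1.08 against LowAhR+AD (SE 0.41, edgeR adjusted p = 0.499, exact permutation p = 0.0571). Neither was called. With each library left out in turn, the first ran from -1.50 (edgeR adjusted p = 0.0438, without LowAhR+AD+BJ replicate 3) to -0.88 (edgeR adjusted p = 0.221, without LowAhR replicate 4). Kdr did not separate LowAhR+AD from LowAhR, with a log2 fold change of -0.17 (SE 0.40).

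Tek encodes Tie2, the receptor through which angiopoietin-1 keeps vessels quiet and sealed. Cont libraries held 22.3, 35.9, 22.7 and 35.4 CPM, and LowAhR libraries 8.25, 41.0, 17.4 and 12.4 CPM. The level was 22.6, 14.6, 9.87 and 7.63 CPM in LowAhR+AD and 10.1, 6.92, 12.9 and 1.61 CPM in LowAhR+AD+BJ. Mean levels thus descended from 29.1 ± 7.60 in Cont through 19.8 ± 14.6 in LowAhR and 13.7 ± 6.62 in LowAhR+AD to 7.90 ± 4.85 CPM in LowAhR+AD+BJ (SD, n = 4 each), but groups next to each other in this order overlapped. All LowAhR+AD+BJ libraries lay below all Cont libraries, a comparison that was not tested. LowAhR replicate 2 was the highest library of all, and the other 3 of its group were below every Cont library. In LowAhR+AD+BJ against LowAhR the log2 fold change was -1.32 (SE 0.55, edgeR adjusted p = 0.160), and without LowAhR replicate 2 it was -0.68. For LowAhR+AD relative to LowAhR it was -0.53 (SE 0.54, edgeR adjusted p = 0.557).

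The partners of both receptors were read from lists of vascular growth factors and endothelial genes. Of 8 tested growth factor genes, 2 fell in LowAhR+AD against LowAhR and 0 rose. Angpt1, the activating ligand of Tie2, went from 18.7 ± 4.22 to 5.39 ± 0.91 CPM (SD, n = 4 each) with a log2 fold change of -1.79 (SE 0.57, edgeR adjusted p = 0.0463), a call that was lost whichever of the 8 libraries was left out (edgeR adjusted p of 0.0645 to 0.109). Vegfb, a ligand of VEGF receptor 1, went from 54.4 ± 16.8 to 20.7 ± 5.53 CPM (SD, n = 4 each) with a log2 fold change of -1.39 (SE 0.27, edgeR adjusted p = 0.00353). Vegfb also fell in LowAhR+AD against Cont and in LowAhR+AD+BJ against LowAhR. In LowAhR+AD against Cont, 1 of the 8 growth factor genes, Apln, rose.

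Vegfa, the ligand of Kdr, had a log2 fold change of -1.13 (SE 0.47, edgeR adjusted p = 0.119) and Vegfc, the lymphatic growth factor, of -1.50 (SE 1.04, edgeR adjusted p = 0.368). For Angpt2, the context-dependent antagonist at Tie2, it was -0.48 (SE 0.54, edgeR adjusted p = 0.607). The receptors related to Kdr and Tek were not called either. Flt1, which encodes VEGF receptor 1, had a log2 fold change of 1.04 (SE 0.56, edgeR adjusted p = 0.241), Tie1 of 0.41 (SE 0.41, edgeR adjusted p = 0.547) and Flt4, the receptor of lymphatic growth factors, of 0.18 (SE 0.51, edgeR adjusted p = 0.856). With each library left out in turn, the value of Flt1 ran from 0.02 to 1.41. Skeletal muscle and fat genes, from tissues rich in small vessels, differed in the same comparison: all 6 tested muscle genes and 5 of 6 adipocyte genes fell in LowAhR+AD against LowAhR. The muscle genes went from a sum of 9797 to 22915 CPM to one of 399 to 3900 CPM, and the adipocyte genes from 3923 to 4634 CPM to 199 to 1541 CPM. Their part in the levels of Angpt1, Vegfb, Kdr and Tek was not tested.

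Vwf encodes von Willebrand factor, which binds platelets at sites of vessel injury. It ranged from 4.07 to 9.75 CPM in Cont, 2.43 to 10.1 in LowAhR, 3.36 to 7.31 in LowAhR+AD and 1.53 to 8.40 CPM in LowAhR+AD+BJ. The group means lay between 4.95 and 6.64 CPM and all groups overlapped. Between LowAhR and LowAhR+AD the log2 fold change was -0.11 with an interval of 2 SE from -1.33 to 1.10, so a change of more than 2-fold either way was within the error.

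Sox17 encodes a transcription factor of arterial endothelium. Its level ranged from 1.56 to 4.44 CPM in Cont, 0.768 to 6.09 in LowAhR, 2.30 to 7.86 in LowAhR+AD and 1.71 to 5.29 CPM in LowAhR+AD+BJ, from 6 counts in LowAhR replicate 2 to 103 in LowAhR+AD replicate 1. From LowAhR to LowAhR+AD the log2 fold change was 0.22 (SE 0.66), and all groups overlapped. With this error a difference of the size of that of Pecam1 was not detectable.

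Lyve1 encodes a receptor for hyaluronan on lymphatic endothelium. In replicates 1 to 4 it stood at 109, 186, 259 and 288 CPM in Cont and at 174, 229, 91.3 and 205 CPM in LowAhR. The levels were 21.4, 117, 71.0 and 141 CPM in LowAhR+AD and 143, 55.1, 114 and 71.8 CPM in LowAhR+AD+BJ. Groups with DNCB had lower means, but in each some library reached into the range of the groups without DNCB. The log2 fold change in LowAhR+AD was -0.997 against LowAhR (SE 0.46, edgeR adjusted p = 0.162) and -1.27 against Cont (SE 0.46, edgeR adjusted p = 0.0576, exact permutation p = 0.0857). The lowest value came from LowAhR+AD replicate 1, without which the first log2 fold change was -0.68.

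Of the 6 other genes of lymphatic vessels that were tested, 4 had a negative and 2 a positive log2 fold change when LowAhR+AD was set against LowAhR, with a median of -0.53. Against Cont there were again 4 negative and 2 positive, with a median of -0.57. Prox1, the transcription factor that defines lymphatic endothelium, had at most 10 counts in any library and was not tested. One of the list rose in LowAhR+AD against LowAhR, Pdpn, which encodes podoplanin and is also made by keratinocytes and fibroblasts (log2 fold change 1.51, SE 0.35, edgeR adjusted p = 0.0106), and 0 fell. Against Cont, Pdpn rose and Reln fell in LowAhR+AD. The 9 macrophage genes had a median log2 fold change of -0.50 in LowAhR+AD against LowAhR, 9 of 9 with a negative sign and 0 called. In LowAhR+AD against Cont their median was 0.04, with 5 positive and 4 negative signs and 0 called. LowAhR+AD replicate 1 had the lowest macrophage sum (242 CPM) as well as the lowest Lyve1. The part of LYVE-1-positive macrophages in the level of Lyve1 was not tested.

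Sele encodes E-selectin, which endothelium makes on exposure to inflammatory cytokines. It was at the edge of detection: in replicates 1 to 4 there were 33, 0, 0 and 0 counts in Cont, 0, 0, 13 and 2 in LowAhR, 42, 2, 26 and 18 in LowAhR+AD and 0, 20, 5 and 0 in LowAhR+AD+BJ. LowAhR+AD was the group with a count in every library, and 7 of the 12 other libraries were at 0. From LowAhR to LowAhR+AD the log2 fold change was 1.80 with an SE of 1.90 (edgeR adjusted p = 0.578), so no difference was detectable.

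Selp encodes P-selectin, which endothelium and platelets store and bring to the surface on activation. It ranged from 1.60 to 3.08 CPM in Cont and from 1.89 to 4.53 CPM in LowAhR. LowAhR+AD gave 0.305, 5.09, 8.55 and 4.66 CPM and LowAhR+AD+BJ 5.29, 0, 5.37 and 1.01 CPM in replicates 1 to 4. In LowAhR+AD, 3 libraries exceeded every LowAhR library and replicate 1 lay below them all. The log2 fold change against LowAhR was 0.53 (SE 1.00, edgeR adjusted p = 0.780).

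Vcam1 encodes the ligand of the leukocyte integrin α4β1. Its level in replicates 1 to 4 was 14.6, 10.3, 17.6 and 13.4 CPM in Cont and 7.30, 9.09, 11.8 and 8.11 CPM in LowAhR. It was 2.29, 19.7, 45.1 and 35.4 CPM in LowAhR+AD and 34.2, 10.1, 10.4 and 46.1 CPM in LowAhR+AD+BJ. Levels were tight in the groups without DNCB and spread 19.7-fold in LowAhR+AD and 4.57-fold in LowAhR+AD+BJ. Relative to LowAhR, the log2 fold change in LowAhR+AD was 1.49 (SE 0.62, edgeR adjusted p = 0.123, exact permutation p = 0.4). Without LowAhR+AD replicate 1 it was 1.87 (edgeR adjusted p = 0.0150), without LowAhR+AD replicate 3 it was 1.07 (edgeR adjusted p = 0.285), and with limma voom on all libraries it was 0.85 (adjusted p = 0.565). LowAhR+AD+BJ differed from LowAhR by a similar amount, 1.47 (SE 0.62, edgeR adjusted p = 0.169), and the 2 groups with DNCB overlapped throughout. LowAhR+AD replicate 1 thus held the lowest Vcam1, Selp, Lyve1, Pecam1 and Vwf of its group but the highest Sele, Tek and Sox17.

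Adhesion molecules outside the chosen genes were mostly not called. Icam1, a ligand of leukocyte β2 integrins, had a log2 fold change of 0.11 (SE 0.37) and Icam2 of 0.25 (SE 1.01) in LowAhR+AD against LowAhR. Of 6 tested genes of other adhesion molecules, F11r, a junction protein that keratinocytes make too, rose (log2 fold change 0.85, SE 0.21, edgeR adjusted p = 0.0136, but 0.0512 without LowAhR replicate 2). Of 10 genes of leukocyte counter-receptors, Cd44, a hyaluronan receptor found on many cell types, rose (log2 fold change 1.38, SE 0.28, edgeR adjusted p = 0.00436) and 0 fell. Genes of neutrophils, which selectins capture, rose with DNCB: 2 of 3 tested against LowAhR, Mmp8 and Cxcr2, the summed level of the list going from 5.97 to 13.7 CPM to 15.5 to 76.5 CPM. The call of Mmp8 was kept in 5 and that of Cxcr2 in 4 of the 8 fits that left out a library (edgeR adjusted p up to 0.0709 and 0.114), and with limma voom both were lost (adjusted p = 0.0764 and 0.301). T cell genes went the other way, with 2 of 6 called lower (Cd3e and Cd3g) and sums of 21.4 to 34.9 CPM in LowAhR and 2.14 to 12.7 CPM in LowAhR+AD. The part of these cells in the levels of Selp and Vcam1 was not tested.

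**Figure D3:**
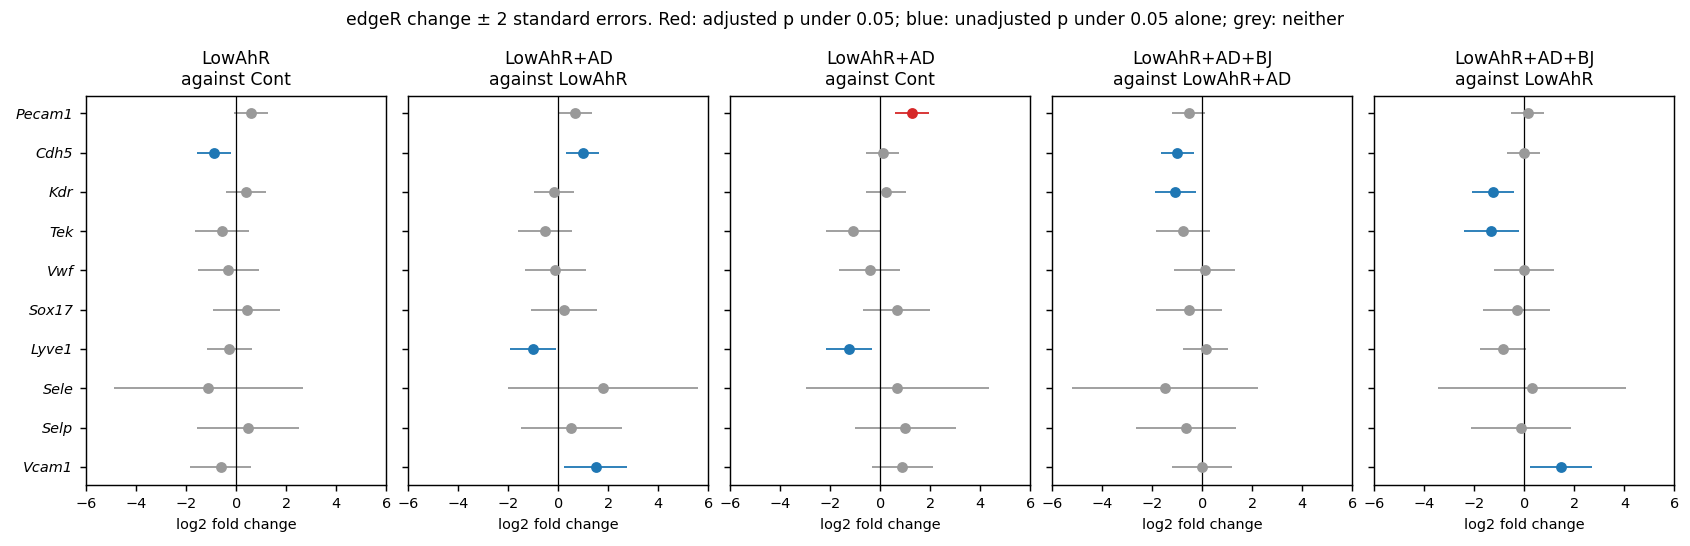
Log2 fold change of the 10 endothelial cell genes (points) with 2 standard errors either side (bars) from edgeR, one panel per comparison. Red marks an adjusted p under 0.05, which only Pecam1 in LowAhR+AD against Cont reached, blue an unadjusted p under 0.05 alone and grey neither.

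Read by comparison, the low-ligand diet alone left the 10 genes with 4 positive and 6 negative log2 fold changes in LowAhR against Cont and a median of -0.29, beside a median of 0.03 over all rows. Only Cdh5 had an unadjusted p under 0.05 (13.7% of all rows did). Red blood cell genes differed in the same comparison: 5 of 5 had positive signs, all with an unadjusted p under 0.05 and 0 called, and their sum went from 1024 to 1411 CPM in Cont to 2728 to 4270 CPM in LowAhR without overlap. The part of blood in the levels of the vessel genes was not tested.

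In LowAhR+AD against LowAhR, 6 genes had positive and 4 negative log2 fold changes, with a median of 0.38 beside 0.04 over all rows. Cdh5, Vcam1 and Lyve1 had unadjusted p under 0.05, which 28.1% of all rows did. In LowAhR+AD against Cont the signs were 7 to 3 and the median 0.44, with unadjusted p under 0.05 for Pecam1 and Lyve1 (34.1% of all rows). These comparisons share the LowAhR+AD libraries.

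Addition of BJIKT to diet and DNCB left 2 positive and 8 negative log2 fold changes, with a median of -0.60 beside 0.00 over all rows. Cdh5 and Kdr had unadjusted p under 0.05 (9.46% of all rows) and no gene was called, here or among all rows. In LowAhR+AD+BJ against LowAhR the signs were 3 to 7 and the median -0.08. Kdr, Tek and Vcam1 had unadjusted p under 0.05 (22.2% of all rows), and Kdr alone had no overlap (17.1% of all rows).

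A longer list of 26 genes of blood vessel endothelium put the 10 genes in context. Its summed level was 1602 to 2935 CPM in Cont and 1093 to 2142 CPM in LowAhR, against 786 to 1193 CPM in LowAhR+AD and 697 to 1031 CPM in LowAhR+AD+BJ. In every Cont and LowAhR library Cd34 made up the larger part of this sum. Cd34, a sialomucin that fibroblasts and hair follicle stem cells make too, fell in LowAhR+AD against LowAhR from 1205 ± 403 to 432 ± 77.2 CPM (SD, n = 4 each, log2 fold change -1.48, SE 0.31, edgeR adjusted p = 0.00535). Fibroblast genes fell with it, 2 of 6 called (Col1a1 and Col1a2), calls kept in 5 and 4 of the 8 fits that left out a library (edgeR adjusted p up to 0.124 and 0.0796). Their part in Cd34 was not tested. Without Cd34, a split made after the values were seen, the other 25 genes summed to 484 to 614 CPM in Cont, 396 to 528 in LowAhR, 425 to 652 in LowAhR+AD and 315 to 450 CPM in LowAhR+AD+BJ, and all groups next to each other in this order overlapped. LowAhR+AD+BJ lay wholly below Cont, a comparison that was not tested.

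**Figure D4:**
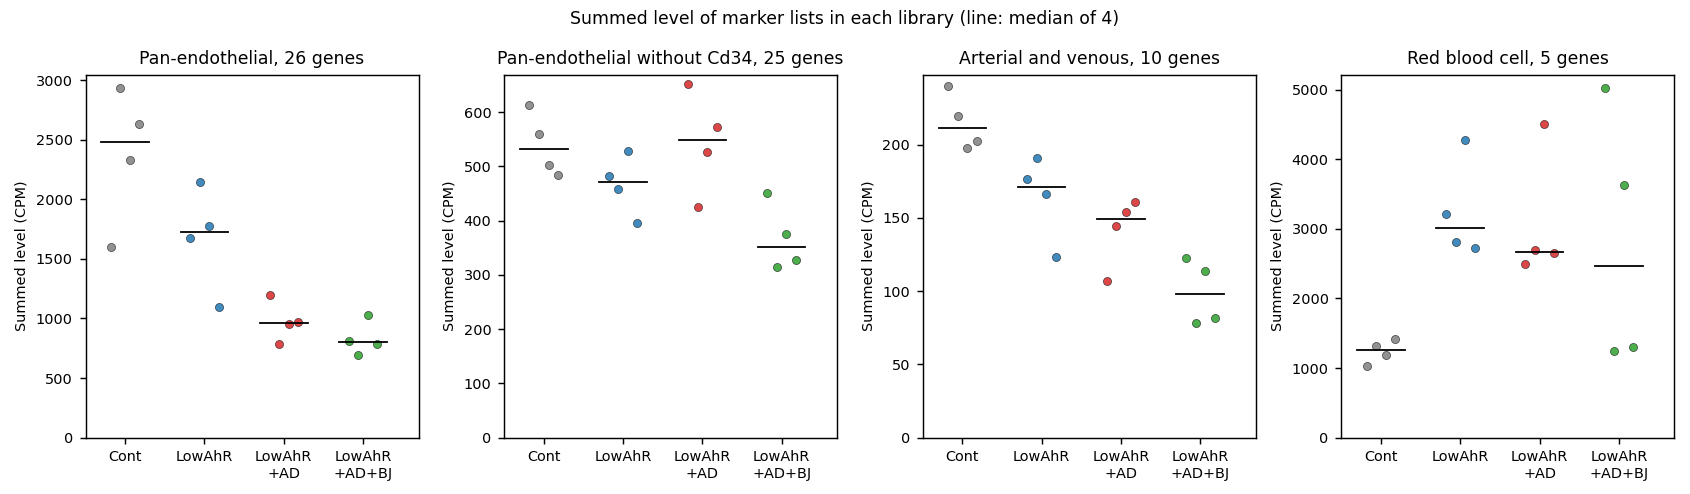
Summed level in CPM of 4 marker lists in each library, by group, with replicates 1 to 4 from the left and the median of 4 as a line. With all 26 pan-endothelial genes the DNCB libraries (697 to 1193 CPM) meet the lowest LowAhR library (1093 CPM). Without Cd34 neighbouring groups overlap, and LowAhR+AD+BJ lies below Cont. The arterial and venous genes lie higher in every Cont library than in any library of the other groups. The red blood cell genes lie lower in every Cont library than in any LowAhR library.

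Of the 25 genes of this list that were tested, 1 (Cd34) fell and 0 rose in LowAhR+AD against LowAhR, with a median log2 fold change of 0.25. Cldn5, which encodes the tight junction protein claudin-5 of endothelium, stood at 21.4 ± 10.5 CPM in LowAhR and 9.45 ± 4.21 CPM in LowAhR+AD (SD, n = 4 each, log2 fold change -1.18, SE 0.39, edgeR adjusted p = 0.0555). It fell in LowAhR+AD against Cont (log2 fold change -1.49, SE 0.39, edgeR adjusted p = 0.0117) and in LowAhR+AD+BJ against LowAhR (log2 fold change -2.35, SE 0.41, edgeR adjusted p = 0.00344), where its mean was 4.19 ± 1.20 CPM (SD, n = 4). Mean levels of the 3 junction genes thus took different courses across the groups, which were not compared by a test. Pecam1 was highest in LowAhR+AD, Cdh5 was low in LowAhR and LowAhR+AD+BJ, and Cldn5 was low in both groups with DNCB and lowest in LowAhR+AD+BJ. In LowAhR+AD+BJ against LowAhR+AD all 3 had negative log2 fold changes, -0.54 for Pecam1, -1.001 for Cdh5 and -1.17 for Cldn5, and none was called. Calcrl, a subunit of the receptors for adrenomedullin and CGRP, fell with Cd34 and Cldn5 in LowAhR+AD against Cont.

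In LowAhR+AD+BJ against LowAhR+AD, 16 of the 25 genes had negative log2 fold changes, with a median of -0.52. Of the 25, 9 had an unadjusted p under 0.05, all 9 with a negative sign, and 9.46% of all rows had such a p. They were Ptprb, Mmrn2, Cldn5, Egfl7, Tie1, Flt1, Plvap, Robo4 and Esam, with log2 fold changes from -1.52 (Ptprb, the phosphatase that acts on Tie2 and VE-cadherin) to -0.81 (Egfl7). Flt1 was uneven in LowAhR+AD, from 10.8 to 62.8 CPM with a median of 13.1 CPM. None of the 9 was called, with edgeR adjusted p of 0.498 to 0.503, and these genes are counted by their unadjusted p, which was chosen after their values were seen. In LowAhR+AD against Cont, which shares the LowAhR+AD libraries, 9 of the 25 also had such a p (34.1% of all rows). Of these, 6 had a positive sign, Egfl7, Tie1, Plvap and Esam among them, and 3 a negative sign, Cldn5 among them. The 9 tested genes of arterial and venous endothelium had a median log2 fold change of -0.19 in the same comparison with 0 called, and the 8 mural cell genes, of the cells that wrap vessels, of -0.12 with 0 called. All 10 arterial and venous genes summed to 198 to 240 CPM in Cont, 124 to 191 in LowAhR, 107 to 161 in LowAhR+AD and 78.6 to 123 CPM in LowAhR+AD+BJ. Every Cont library thus lay above every library of the other groups in this sum, a separation that was not tested. The single genes did not share a direction. In LowAhR against Cont, 5 of the 9 tested had a positive and 4 a negative log2 fold change, with a median of 0.06 and 0 called. In LowAhR+AD against Cont, Aplnr of this list rose and Efnb2 fell. In LowAhR+AD+BJ against LowAhR, Nr2f2, a transcription factor of venous identity, fell, and so did Myh11, a smooth muscle myosin. Myh11 also fell without BJIKT, in LowAhR+AD against LowAhR (log2 fold change -1.57, SE 0.35, edgeR adjusted p = 0.00856). Between LowAhR+AD+BJ and LowAhR+AD its log2 fold change was -0.05 (SE 0.35, edgeR adjusted p = 0.973). In LowAhR+AD against Cont, 3 of the 8 mural cell genes fell (Myh11, Abcc9 and Kcnj8) and 1 rose (Acta2).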

How the data were processed

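The authors deposited whole-number counts by gene symbol, 1 table for each of 16 libraries, made from 500 ng of total RNA by QuantSeq 3′ mRNA sequencing with single-end reads of 75 bases on a NextSeq 500. The submitters' processing notes name Bowtie2, bedtools and the build mm10, and their settings and the treatment of multi-mapped reads are not given in the sources used here. The counts were not normalized, and 0 rows named no gene. Groups came from the sample labels. Nothing pairs the animals of different groups.

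Rows were kept by filterByExpr (minimum count 10, minimum total 15), which left 14854 of 23282. Counts were scaled by TMM (factors 0.892 to 1.16) and tested with edgeR 4.0.16 in R 4.3.3 by the quasi-likelihood test, with Benjamini-Hochberg adjustment over all kept rows. log2 CPM for exact permutation tests used a prior count of 2. Replicates differed far beyond sampling noise (chi-square per degree of freedom 16.4 to 285). The tests were first tested on simulated data with known changes. Alternatives were RLE factors, library totals alone, DESeq2 1.42.0, limma 3.58.1 voom, other filters, a model of 8 libraries, a replicate block and each library left out. The 10 genes and the marker lists were chosen with earlier results of these data known. Named beside them were, per list, the 2 largest rises and falls called in LowAhR+AD against LowAhR with a mean of at least 5 CPM, and 11 ligands and relatives of the 10 genes. A few genes outside this rule were named as members of short counts after their values were seen.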

Additional observations from a re-analysis of the deposited data

Results flagged for a closer look

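Of the 40 sets of 4 libraries (10 genes in 4 groups), 2 held a library far from the others by Dixon's criterion, which chance alone does in about 1 of 20 sets. Sele stood at 4.24 CPM in Cont replicate 1 with the other 3 Cont libraries at 0, and at 1.69 CPM in LowAhR replicate 3 with the next library of that group at 0.239 CPM. Both rest on few counts, 33 and 13.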

How the results depend on the processing

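The call of Pecam1 in LowAhR+AD against Cont held under every alternative. Genes called among the 10 changed as follows. LowAhR+AD against LowAhR gave 1 (Cdh5) with library totals alone, with DESeq2 and with at least 10 counts in every library, and 0 to 2 with each library left out (Pecam1 without LowAhR replicate 4, Vcam1 and Cdh5 without LowAhR+AD replicate 1). LowAhR+AD against Cont gave 2 (Pecam1 and Lyve1) with library totals alone, DESeq2, limma voom and the strict filter, and 1 to 2 with each library left out. LowAhR+AD+BJ against LowAhR gave 1 (Kdr) with DESeq2 and the strict filter, and 0 to 1 with each library left out.

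Over all rows, LowAhR against Cont gave 0 calls, but 491 with DESeq2, 45 with the strict filter, 250 from its 8 libraries alone and 0 to 159 with each library left out. LowAhR+AD against LowAhR gave 1876, 765 from its 8 libraries alone and 1128 to 2015 with each library left out. LowAhR+AD+BJ against LowAhR+AD gave 0, 17 with DESeq2 and 0 to 1 with each library left out. LowAhR+AD+BJ against LowAhR gave 1005, 1676 with DESeq2 and 414 to 1469 with each library left out. The causes were not tested.

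In LowAhR+AD against LowAhR some log2 fold changes close to 0 turned sign. With limma voom, Selp was -0.16 and Icam2 -0.11. With a library left out the ranges were -0.45 to 0.20 for Kdr, -0.89 to 0.11 for Tek, -0.36 to 0.40 for Vwf, -0.13 to 0.47 for Sox17, -0.12 to 0.44 for Flt4, -0.31 to 0.31 for Icam1 and -0.16 to 0.72 for Icam2. With the replicate block, the numbers of the 10 genes called were 0, 0, 1, 0 and 0 in the order of the report, as without it. Samples with the same number did not deviate together (median r -0.007), so the numbers do not pair them. Scaling by library totals moved the median of all rows by -0.11 in LowAhR against Cont and less elsewhere, and signs of the 10 genes kept their counts. Taken as 2 SE, the errors of Sele, Selp, Sox17 and Vwf span a 2-fold change, and so do those of Vcam1 and Tek, which have more counts. In LowAhR+AD against LowAhR the SE was 0.62 for Vcam1, 0.61 for Vwf and 0.54 for Tek. The part of depth was not tested.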
